A study of Mus musculus with 6 samples.

Results

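The GDNF and KIT ligand axes are signals that pass from somatic cells of the testis to germ cells. They were followed here through 8 genes chosen by name, Gdnf, Gfra1, Ret, Nrtn, Gfra2, Etv5, Kitl and Kit, and all 8 were among the 22320 genes of the authors' comparison table. GDNF, a growth factor secreted by Sertoli cells, the supporting cells of the testis cords, binds the co-receptor GFRA1 on germ cells, and the pair then engages the receptor tyrosine kinase RET to keep spermatogonial stem cells renewing. Neurturin, encoded by Nrtn, is a close relative of GDNF that prefers the co-receptor GFRA2. KIT ligand, encoded by Kitl, is made by Sertoli cells and acts on the receptor tyrosine kinase KIT of differentiating spermatogonia, while ETV5 is a transcription factor that GDNF raises in cultured spermatogonia and that Sertoli cells also hold.

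Whole testes were taken at postnatal day 1.5 and their messenger RNA sequenced, in 3 pools of 4 testes for the Arid4bSCKO group and 3 for the control group. Arid4bSCKO mice carried Arid4b-/Flox; Amh-cre, and control mice carried Arid4b+/Flox; Amh-cre, both on a hybrid C57BL6/J and 129/SvEv background. Both groups therefore had a floxed allele and Cre under the Amh promoter, a Sertoli cell promoter, and the null allele of the Arid4bSCKO mice was present in every other cell type too. ARID4B belongs to the Sin3 complex, which removes histone acetylation.

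Levels are the authors' normalized counts, deposited as the mean of log2(normalized count + 1) over the pools of each group. The values of single pools were worked back from those means and the deposited p-values as whole reads, with 1 exact solution for 19374 genes and for all members but Kit. Pools are named A, B and C within a group by ascending worth of 1 read in normalized counts. These letters are not the submitters' replicate numbers, and a letter does not pair an Arid4bSCKO pool with a control pool. The recovered genes held 13.6 M to 15.2 M reads (M, mega) in the Arid4bSCKO pools and 15.4 M to 16.0 M in the control pools. Arid4b itself had 417, 356 and 462 normalized counts in the Arid4bSCKO pools, against 1184, 1154 and 1170 in the control pools, or 35.1% of control. Each gene is given with 2 tests, the authors' FDR over all genes and a moderated test (limma on the variances that the deposited p-values imply), each with a threshold of 0.05. The authors' FDR called 58 genes, 0.26% of the table, and the moderated test called 2641 of 19095 genes, 13.8%.

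Since both ligands below had lower levels in Arid4bSCKO testes, the sequence around 1 RefSeq start site of each is shown, from 250 bases before to 50 bases after it on the plus strand in GRCm38.p6. Gdnf has 2 such windows in the table and the upstream one, chr15:7809798-7810097, is printed. The Kitl window is chr10:100015571-100015870. Capitals mark motif matches.
Gdnf: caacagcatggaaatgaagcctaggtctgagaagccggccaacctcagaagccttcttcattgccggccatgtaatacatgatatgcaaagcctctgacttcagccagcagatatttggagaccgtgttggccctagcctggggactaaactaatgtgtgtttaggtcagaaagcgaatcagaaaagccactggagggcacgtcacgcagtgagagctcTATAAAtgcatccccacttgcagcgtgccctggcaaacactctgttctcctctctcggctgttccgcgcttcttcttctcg
Kitl: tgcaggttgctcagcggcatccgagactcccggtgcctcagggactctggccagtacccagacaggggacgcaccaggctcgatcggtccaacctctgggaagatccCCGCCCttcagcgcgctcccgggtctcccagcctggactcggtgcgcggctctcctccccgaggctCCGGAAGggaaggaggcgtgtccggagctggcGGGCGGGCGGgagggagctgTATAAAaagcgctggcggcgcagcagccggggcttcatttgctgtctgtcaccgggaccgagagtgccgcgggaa
Matches were sought on both strands for the GC box GGGCGG, the GATA motif GATAAG, the SF1 motif AAGGTCA, the cAMP response element TGACGTCA, the ETS motif CCGGAAG, the E-box CACGTG and the TATA box TATAAA. The TATA box was added after these sequences had been read. Both printed windows held it, starting 31 bases upstream of the start site in Gdnf and 25 bases upstream in Kitl. Of 32851 windows of this length, 13.6% held TATAAA anywhere and 1.99% held it on the gene's own strand between 20 and 40 bases upstream. The printed Gdnf window held no other match, and the downstream Gdnf window, chr15:7813477-7813776, held none of the 7 motifs. The Kitl window held 3 GC boxes, of which the last 2 share bases, and 1 ETS motif, which 35.7% and 8.86% of windows hold. GC content was 51.7% in the printed Gdnf window and 68.7% in the Kitl window. The 4 other members with windows in the table were Gfra1, Nrtn, Etv5 and Kit, and none of them held TATAAA. Gfra2, which was also lower in Arid4bSCKO, and Ret had no window. The TATA box was picked from the Gdnf and Kitl windows, so its absence from the others is no test of the lower members. A match describes these letters only, and a missing match says only that the letters are not in this window.

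The ligands GDNF and KIT ligand had lower transcript levels in Arid4bSCKO testes, while the third ligand, neurturin, was close to the limit of detection. Gdnf had 542, 417 and 282 normalized counts in the Arid4bSCKO pools, against 853, 799 and 927 in the control pools. Every Arid4bSCKO pool lay below every control pool, and the highest Arid4bSCKO pool did not reach the lowest control pool. Such a separation in either direction was found in 34.7% of the genes with recovered pools. The group means were 413.6 ± 129.9 and 859.7 ± 64.3 normalized counts (SD, n = 3 each). On the log2 scale Gdnf averaged 8.65 in Arid4bSCKO and 9.75 in control, a difference of -1.10 (95% interval -1.88 to -0.32), or 46.6% of control. It passed the moderated test (limma, adjusted p = 0.00782) but not the authors' FDR (0.154). In whole tissue, fewer cells of a type and less RNA per cell cannot be told apart.

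Kitl was the most abundant member. It had 5492, 4059 and 3781 normalized counts in the Arid4bSCKO pools, against 7412, 7414 and 8340 in the control pools, and again the groups did not overlap. The means were 4443.6 ± 918.2 in Arid4bSCKO and 7721.7 ± 535.2 in control (SD, n = 3 each). The log2 difference was -0.81 (95% interval -1.30 to -0.33), or 56.9% of control, with an adjusted p of 0.00252 in the moderated test (limma) and an authors' FDR of 0.132. Among the 19095 genes tested, 3.07% had a lower difference than Gdnf and 6.02% a lower difference than Kitl. Both calls ended when the variance was shrunk without a trend on level and without robust fitting (limma, adjusted p = 0.0823 for Gdnf and 0.0736 for Kitl), and both were kept with any 1 pool left out.

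Nrtn was read 11, 8 and 12 times in the Arid4bSCKO pools, against 7, 12 and 4 times in the control pools. In normalized counts this was 14.1, 10.4 and 17.4 in Arid4bSCKO and 8.41, 14.8 and 5.01 in control, so that the groups overlapped. The difference of 0.61 log2 had a 95% interval of -0.64 to 1.86 and did not pass the moderated test (limma, adjusted p = 0.412). The other GDNF family ligands were also rare. Artn, which encodes artemin, was read 12, 11 and 10 times in the Arid4bSCKO pools, against 17, 15 and 8 times in the control pools. Pspn, which encodes persephin, was read 1 time in all in the Arid4bSCKO pools and 7 times in the control pools, too few for a fold change.

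**Figure D1:**
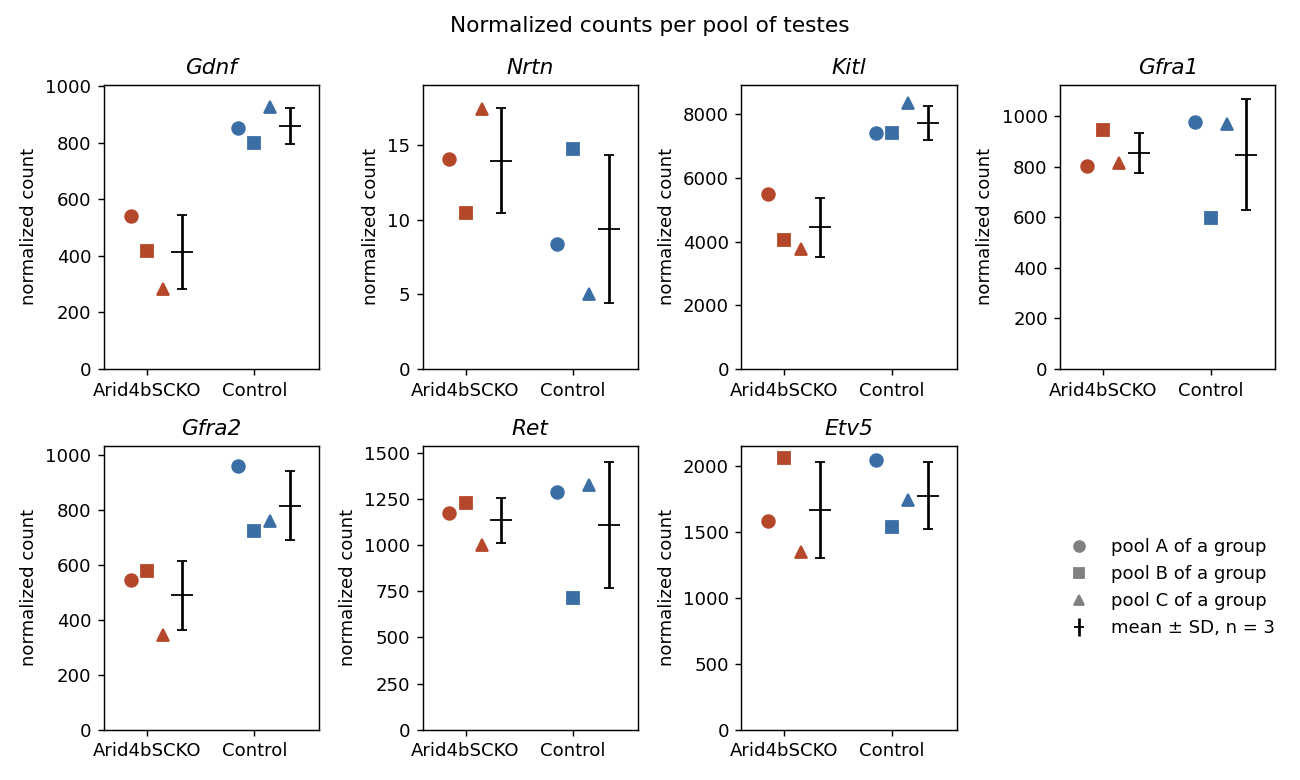
Normalized counts of 7 members in each pool of testes, with Arid4bSCKO pools left of control pools and bars for the mean ± SD (n = 3). Gdnf, Kitl and Gfra2 do not overlap between the groups, with Gdnf at 282 to 542 in Arid4bSCKO and 799 to 927 in control. Nrtn, Gfra1, Ret and Etv5 do overlap. Groups without overlap, in either direction, were found for 34.7% of the genes with recovered pools. Each panel has its own linear axis from 0, and Kit is not shown because its pools were not recovered.

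Of the receptors, the GDNF co-receptor Gfra1 and the kinase Ret had about equal levels in both groups, and the neurturin co-receptor Gfra2 was lower in Arid4bSCKO. Gfra1 had 804, 945 and 817 normalized counts in the Arid4bSCKO pools, against 980, 596 and 971 in the control pools. Control pool B was the lowest of the 6 and the other 2 control pools were the highest. The difference was 0.04 log2 (95% interval -0.65 to 0.73; limma, adjusted p = 0.907). Ret was likewise lowest in control pool B and highest in the other 2 control pools, with 1177, 1229 and 999 normalized counts in the Arid4bSCKO pools, against 1289, 716 and 1325 in the control pools. Its difference was 0.08 log2 (95% interval -0.76 to 0.92; limma, adjusted p = 0.862). Without control pool B the differences of Gfra1 and Ret were -0.19 and -0.21 log2, and neither passed the moderated test. Their sign thus turned without that pool.

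Gfra2 had 545, 579 and 346 normalized counts in the Arid4bSCKO pools, against 961, 725 and 762 in the control pools. The groups did not overlap, and Arid4bSCKO pool C was the lowest. The difference was -0.76 log2 (95% interval -1.50 to -0.02), or 59.1% of control. Gfra2 passed the moderated test (limma, adjusted p = 0.0281) and not the authors' FDR (0.229). It was the least stable of the 3 calls. The moderated test (limma) gave an adjusted p of 0.0897 without control pool A, 0.0515 without control pool C and 0.132 with neither trend nor robust fitting.

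Kit, whose product binds KIT ligand, averaged 9.90 log2 in Arid4bSCKO and 9.43 log2 in control. The difference was 0.47 log2 (95% interval -0.22 to 1.15), or 138% of control, with an adjusted p of 0.112 in the moderated test (limma) and an authors' FDR of 0.371. Its deposited values were met by no set of whole reads, so how its pools fell is not known. KIT is also borne by mast cells and melanocytes. Of 7 mast cell markers tested, 5 rose in the moderated test (limma), the proteases and tryptases Cpa3, Cma1, Mcpt4, Tpsb2 and Tpsab1, by 1.26 to 1.44 log2. Hdc, the enzyme that makes histamine, fell by 0.80 log2. Among all genes tested, 7.37% rose and 6.46% fell in the moderated test. The summed level of the 8 mast cell markers was 1663 to 2461 normalized counts in the Arid4bSCKO pools and 994 to 1207 in the control pools. The melanocyte list had 1 of 3 tested genes called, Mitf, a transcription factor that mast cells also use, at 0.80 log2 higher. The part of these cell types in the Kit level was not tested.

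Among the remaining GDNF family receptors, Ncam1, a cell adhesion molecule that can bind GDNF with GFRA1, had 1351, 1579 and 1331 normalized counts in the Arid4bSCKO pools, against 1250, 982 and 1079 in the control pools. The groups did not overlap, and the difference of 0.37 log2 (95% interval 0.01 to 0.72) passed the moderated test (limma, adjusted p = 0.0449). Ncam1 lost this call in 5 of 16 alternatives, which were no trend and no robust fitting, scaling by total reads, and leaving out Arid4bSCKO pool B, control pool B or control pool C, with adjusted p of up to 0.171 (limma) and differences of 0.29 to 0.49 log2 over the 16. Sdc3, a heparan sulfate proteoglycan that binds GDNF, had 2844, 3076 and 2635 normalized counts in the Arid4bSCKO pools, against 3659, 3155 and 3207 in the control pools. Its difference of -0.23 log2 did not pass (limma, adjusted p = 0.121), although the groups did not overlap. Gfra3, the artemin co-receptor, and Gfra4, the persephin co-receptor, differed by 0.15 and -0.02 log2, with intervals that held 0. Gfral was read 1 time, in a control pool. Of the 8 receptor genes, 7 were tested, 1 was lower and 1 higher, against 6.46% and 7.37% of all genes tested. Their median difference was 0.04 log2, against -0.035 log2 over all genes tested.

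Etv5 had 1581, 2064 and 1352 normalized counts in the Arid4bSCKO pools, against 2046, 1537 and 1743 in the control pools. The ranges overlapped, and the difference was -0.10 log2 (95% interval -0.70 to 0.49; limma, adjusted p = 0.706). Its sign turned when Arid4bSCKO pool C or control pool A was left out. Over the 8 members, 3 were lower and none higher in the moderated test, which called 6.46% of all genes lower and 7.37% higher. Their median difference was -0.031 log2, against -0.035 log2 over all genes tested. By the authors' FDR, 0 of the 8 passed, and 3 had an unadjusted p below 0.05, against 20.9% of all genes.

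**Figure D2:**
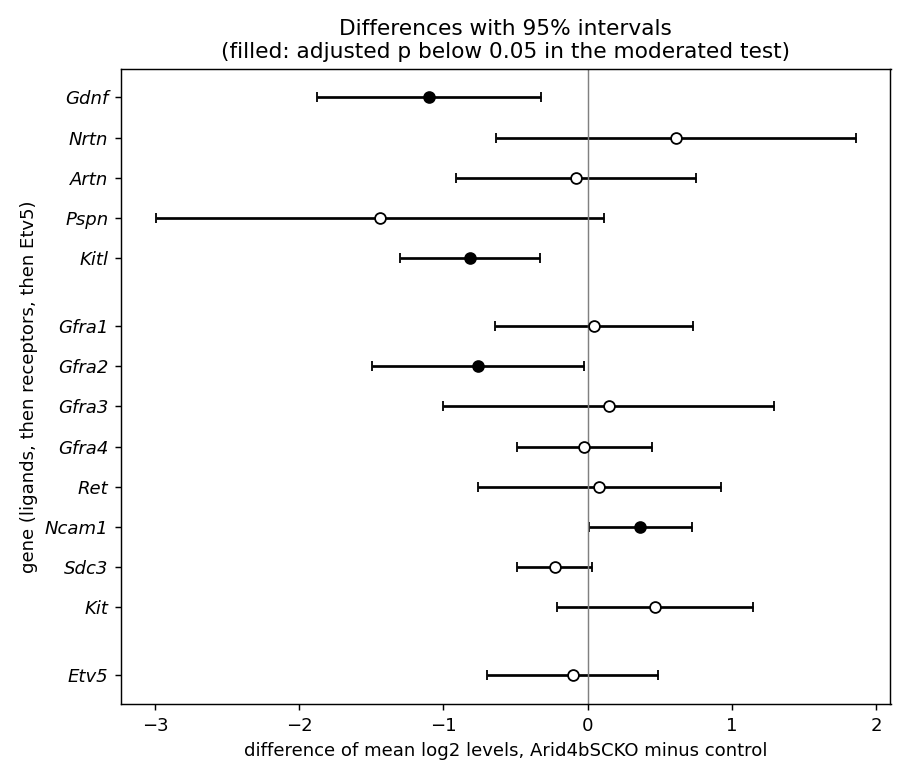
Difference of mean log2 levels, Arid4bSCKO minus control, with 95% intervals for ligands, receptors and Etv5 from top to bottom, where filled points passed the moderated test. Gdnf at -1.10, Kitl at -0.81 and Gfra2 at -0.76 lie below 0, Ncam1 at 0.37 lies above 0, and the intervals of Gfra1, Ret, Kit and Etv5 hold 0. The Pspn point rests on 1 read in Arid4bSCKO and 7 in control.

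Levels of different genes were set side by side as normalized counts per kb of the longest annotated transcript. In Arid4bSCKO the order was Kitl (776 per kb), Etv5 (413), Ret (207), Gfra1 (184), Kit (182), Gfra2 (138), Gdnf (109) and Nrtn (13.4). In control it was Kitl (1365 per kb), Etv5 (444), Gdnf (234), Gfra2 (233), Ret (196), Gfra1 (178), Kit (132) and Nrtn (8.43). In Arid4bSCKO the pools of Gdnf (76.7 to 147 per kb) lay below all those of Gfra1 (173 to 204) and Ret (183 to 225). In control the pools of Gdnf (218 to 252 per kb) lay above all those of Gfra1 (128 to 211) and overlapped those of Ret (131 to 243). In control, Gdnf and Gfra2, Gfra2 and Ret, and Ret and Gfra1 were neighbours whose pool ranges overlapped. In Arid4bSCKO the pool ranges of Ret and Gfra1, and of Gfra2 and Gdnf, overlapped. Kit could be placed only by its group mean, which differed from that of Gfra1 by 0.01 log2 in Arid4bSCKO and 0.44 log2 in control, with an implied SD of 0.30 log2.

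The next comparison asked whether a ligand and its receptor differed in their change. In whole testes a receptor transcript need not come from germ cells alone, as for Kit above. The 4 ligand and receptor pairs were compared as the difference between their differences, with the widest 95% interval that any correlation between the 2 genes allows. Kitl less Kit was -1.28 log2 (interval -2.45 to -0.11), which did not hold 0. The pools of Kit were not recovered, so this pair had no ratio within pools and no fit with a pool left out. Gdnf less Gfra1 was -1.14 log2 (interval -2.61 to 0.32) and Gdnf less Ret was -1.18 log2 (interval -2.80 to 0.44), and both held 0. Nrtn less Gfra2 was 1.37 log2 (interval -0.61 to 3.35).

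The recovered pools give the ratio within each pool, which the group means cannot. The log2 ratio of Gdnf to Gfra1 was -0.57, -1.18 and -1.53 in the Arid4bSCKO pools, against -0.20, 0.42 and -0.07 in the control pools. The log2 ratio of Gdnf to Ret was -1.12, -1.56 and -1.82 in the Arid4bSCKO pools, against -0.60, 0.16 and -0.51 in the control pools. Neither ratio overlapped between the groups. With the spread of the ratio itself, the intervals of the differences were -2.09 to -0.20 for Gdnf to Gfra1 and -2.06 to -0.31 for Gdnf to Ret. With 1 pool left out, the interval held 0 in 5 of 6 fits for Gdnf to Gfra1, all but the one without Arid4bSCKO pool A. It held 0 in 2 of 6 fits for Gdnf to Ret, those without Arid4bSCKO pool B or C. A two-sided exact permutation test gave p = 0.1 for each ratio, the smallest that 3 pools against 3 allow. The log2 ratio of Nrtn to Gfra2 was -5.18, -5.66 and -4.23 in the Arid4bSCKO pools, against -6.68, -5.52 and -6.99 in the control pools. These overlapped (exact permutation p = 0.2).

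Gdnf and Kitl were also set against transcripts of Wt1 and Sox9, transcription factors of Sertoli cells that did not pass the moderated test (differences of -0.21 and 0.15 log2). These ratios were chosen after the pool values had been seen. The log2 ratio of Gdnf to Wt1 was -2.46, -2.94 and -3.27 in the Arid4bSCKO pools, against -2.13, -2.10 and -1.77 in the control pools, a difference of -0.89 (95% interval -1.62 to -0.16). For Gdnf to Sox9 the difference was -1.25 (interval -1.82 to -0.69). For Kitl it was -0.60 against Wt1 (interval -1.16 to -0.04) and -0.96 against Sox9 (interval -1.57 to -0.36). None of the 4 ratios overlapped between the groups, as Gdnf and Kitl themselves did not, and each had an exact permutation p of 0.1. Wt1 and Sox9 are markers that did not pass, and the ratio depends on that choice. Over all 11 recovered Sertoli cell markers, the difference of the Gdnf ratio ran between -2.05 against Cldn11 and -0.15 against Inhbb, and its interval lay below 0 for 7 markers and held 0 for Dhh, Inha, Inhbb and Fshr. The difference of the Kitl ratio ran between -1.77 against Cldn11 and 0.13 against Inhbb. Its interval lay below 0 for 4 markers, Sox9, Wt1, Cldn11 and Cst12, and held 0 for the other 7. All Arid4bSCKO pools lay below all control pools in 8 of the 11 Gdnf ratios and 5 of the 11 Kitl ratios. The ratios of Gfra1 and Ret to Ddx4, an RNA helicase of germ cells, differed by 0.33 and 0.37 log2, with intervals that held 0 (exact permutation p = 0.3 and 0.4). No other germ cell marker was used for these ratios, which depend on that choice. Differences of the 12 germ cell markers ran between -0.86 log2 for Dppa4 and 0.57 log2 for Nanos3, with -0.29 log2 for Ddx4. Over the 9 ratios, the smallest exact permutation p after Benjamini-Hochberg adjustment was 0.15.

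**Figure D3:**
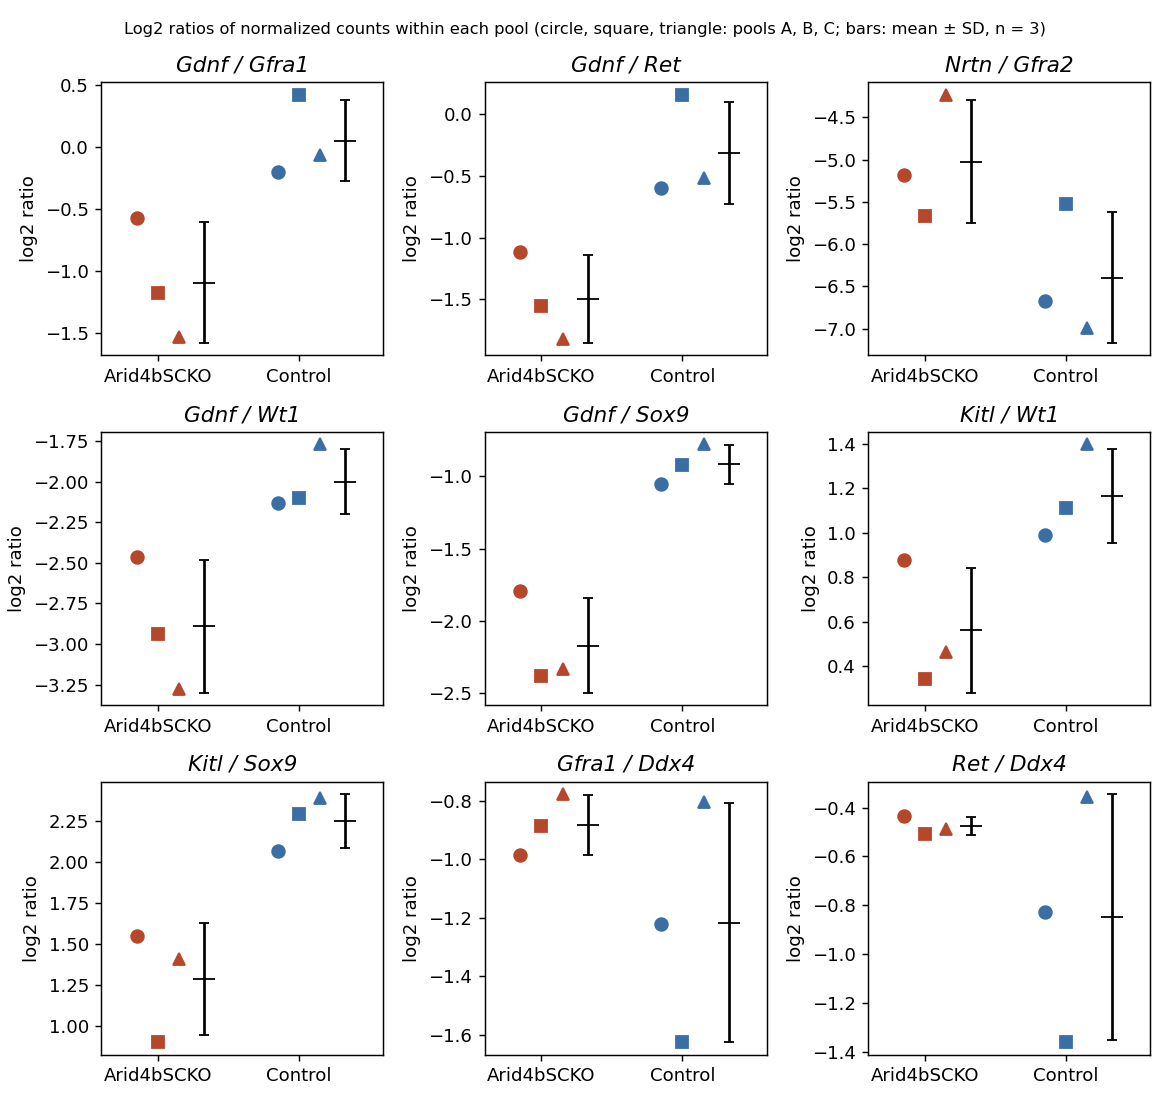
Log2 ratios within each pool, Arid4bSCKO left of control, with bars for the mean ± SD (n = 3); axes differ between panels and do not start at 0. The ratios of Gdnf to Gfra1, Ret, Wt1 and Sox9 and of Kitl to Wt1 and Sox9 are lower in all 3 Arid4bSCKO pools than in any control pool, while those of Nrtn to Gfra2 and of Gfra1 and Ret to Ddx4 overlap.

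Of 12 Sertoli cell markers 5 were lower in the moderated test, Dhh, Gata4, Inha, Inhbb and Dmrt1, against 6.46% of all genes. Cldn11, a tight junction gene, was higher by 0.95 log2, and 6 did not pass. The median difference was -0.60 log2. Their summed level, over the 11 recovered, was 31789 to 51050 normalized counts in the Arid4bSCKO pools and 59167 to 64786 in the control pools. Of 12 germ cell markers 1 was lower, Dppa4, and the summed level was 6910 to 8463 in the Arid4bSCKO pools and 8252 to 11872 in the control pools. Of 7 macrophage markers all were higher, against 7.37% of all genes, with sums of 2813 to 3910 in Arid4bSCKO and 1764 to 2073 in control. Of 16 immediate-early genes, a list written with earlier results of these data known, 10 were higher and none lower, with sums of 17154 to 22141 in Arid4bSCKO and 11263 to 12248 in control. The part of these shifts in the levels of the members was not tested. The ratios to Sertoli cell markers and Ddx4 given above cannot measure that part. In whole tissue a marker transcript does not separate fewer cells from less RNA per cell.

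Of 16 candidate regulators of Gdnf and Kitl in Sertoli cells, hormone receptors and transcription factors, 4 were lower, Nr5a1, Gata4, Dmrt1 and Nr2f2. The 1 higher was Cebpb, and of all genes tested 6.46% were lower and 7.37% higher. The median difference was -0.19 log2, against -0.035 log2 over all genes tested. Nr5a1, an orphan nuclear receptor of steroidogenic and Sertoli cells, had 4994, 4821 and 4105 normalized counts in the Arid4bSCKO pools, against 6769, 6624 and 6693 in the control pools. The groups did not overlap, and the difference was -0.53 log2 (95% interval -0.78 to -0.29; limma, adjusted p = 0.00339). Cebpb, a basic leucine zipper factor of inflammatory and hormone responses, had 173, 199 and 206 normalized counts in the Arid4bSCKO pools, against 88.9, 91.1 and 84.0 in the control pools. Its difference was 1.12 log2 (interval 0.88 to 1.36; limma, adjusted p = 0.00159). Fshr, the receptor for follicle-stimulating hormone, which raises Gdnf and Kitl, differed by -0.93 log2 and did not pass (limma, adjusted p = 0.0937). The Arid4bSCKO pools of Fshr had 942, 608 and 387 normalized counts, against 1185, 1112 and 1159 in the control pools. Nr5a1, Dmrt1 and Cebpb kept their calls with any 1 pool left out. Gata4 and Nr2f2 lost theirs without Arid4bSCKO pool C and without each control pool, with differences of -0.49 to -0.25 and -0.44 to -0.28 log2 over all alternatives. Nr2f2 was also 1 of 4 markers listed for interstitial stroma, so its level cannot be assigned to Sertoli cells.

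Downstream of RET and KIT, differences of signal transducers ran between -0.36 and 0.70 log2. Of 26 adaptor, kinase and Ras pathway genes 1 was lower, the phospholipase Plcg1 at -0.32 log2, and 2 were higher, the docking proteins Dok5 and Dok1 at 0.70 and 0.50 log2. The median difference was -0.06 log2. Among all genes tested, the moderated test called 6.46% lower and 7.37% higher. Dok5, a docking protein that RET phosphorylates, had 228, 244 and 198 normalized counts in the Arid4bSCKO pools, against 144, 134 and 132 in the control pools, without overlap (limma, adjusted p = 0.0116). Fyn, a Src family kinase, differed by -0.25 log2 and missed the threshold (limma, adjusted p = 0.0512). Dok5 kept its call with any 1 pool left out, and Dok1 lost it without Arid4bSCKO pool C and without each control pool (0.37 to 0.59 log2 over all alternatives). Plcg1, whose pools were not recovered, lost its call in 2 of 6 alternatives (-0.32 to -0.22 log2).

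Spermatogonial genes linked to GDNF signalling or to stem cell maintenance were called in both directions. Of 15 such genes 3 were lower, T, Mycn and Foxo1, and 1 was higher, Etv4, against 6.46% and 7.37% of all genes tested. The median difference was -0.18 log2. T, the T-box factor brachyury, had 25.6, 20.9 and 13.1 normalized counts in the Arid4bSCKO pools, against 55.2, 43.1 and 65.2 in the control pools. The difference was -1.44 log2 (95% interval -2.33 to -0.55; limma, adjusted p = 0.0129), and the order of the Arid4bSCKO pools was that of Gdnf. Etv4, an ETS factor related to Etv5, had 531, 656 and 608 normalized counts in the Arid4bSCKO pools, against 435, 292 and 396 in the control pools. It was higher by 0.69 log2 (interval 0.15 to 1.23; limma, adjusted p = 0.0129). Bcl6b, a transcriptional repressor of stem cell maintenance, differed by -0.18 log2, with an interval of -0.82 to 0.46. With a pool left out, Etv4 kept its call, T lost it without control pool A (-1.42 log2), Mycn without Arid4bSCKO pool B or any control pool (-1.09 to -0.61 log2 over all alternatives), and Foxo1 without Arid4bSCKO pool C, control pool A or control pool C (-0.52 to -0.27 log2).

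Of 10 regulators of Kit in germ cells, 1 was lower and 1 was higher, against 6.46% and 7.37% of all genes tested. Their median difference was -0.04 log2. Dmrt1, a testis factor of Sertoli and germ cells alike, had 2108, 1862 and 1295 normalized counts in the Arid4bSCKO pools, against 2828, 2744 and 2901 in the control pools. The difference was -0.72 log2 (95% interval -1.30 to -0.13; limma, adjusted p = 0.0142). Stra8, a retinoic acid target of germ cells entering differentiation, had 160, 399 and 324 normalized counts in the Arid4bSCKO pools, against 91.3, 83.7 and 158 in the control pools. It was higher by 1.36 log2 (limma, adjusted p = 0.0422), with the lowest Arid4bSCKO pool just above the highest control pool. Stra8 lost its call without Arid4bSCKO pool B or C, without control pool A or B, and under voom, with differences of 1.09 to 1.75 log2 over all alternatives. Sohlh1 and Sohlh2, which drive Kit in spermatogonia, differed by -0.25 and 0.12 log2, and Zbtb16, a repressor of Kit, by -0.05 log2. The intervals of all 3 held 0.

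Other ligands of the niche split between directions. Of 18 tested, 2 were lower, the Sertoli cell products Dhh at -0.86 log2 and Inha at -0.91 log2, and 4 were higher, Csf1, Lif, Vegfa and Ccl9. The median difference was -0.08 log2, and of all genes tested 6.46% were lower and 7.37% higher. Csf1, the growth factor of macrophages, had 399, 499 and 568 normalized counts in the Arid4bSCKO pools, against 258, 246 and 228 in the control pools. It was higher by 0.99 log2 (95% interval 0.55 to 1.42; limma, adjusted p = 0.00159) without overlap. Cxcl12, a Sertoli cell chemokine whose receptor CXCR4 is on germ cells, differed by -0.23 log2 and did not pass (limma, adjusted p = 0.0834). With a pool left out, Csf1, Lif and Ccl9 kept their calls, and Vegfa lost its call without control pool A or C (0.51 log2 each). Dhh lost its call without any pool but Arid4bSCKO pool A (-1.12 to -0.72 log2 over all alternatives), and Inha without Arid4bSCKO pool B or any control pool (-1.15 to -0.68 log2). By the authors' FDR, 0 genes of any of these lists passed, and 20.9% of all genes had an unadjusted p below 0.05. In the lists these numbered 1 of 4 GDNF family ligands, 2 of 7 receptors, 9 of 26 transducers, 4 of 15 GDNF-responsive genes, 2 of 10 Kit regulators, 7 of 18 other niche ligands and 4 of 16 Sertoli cell regulators.

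**Figure D4:**
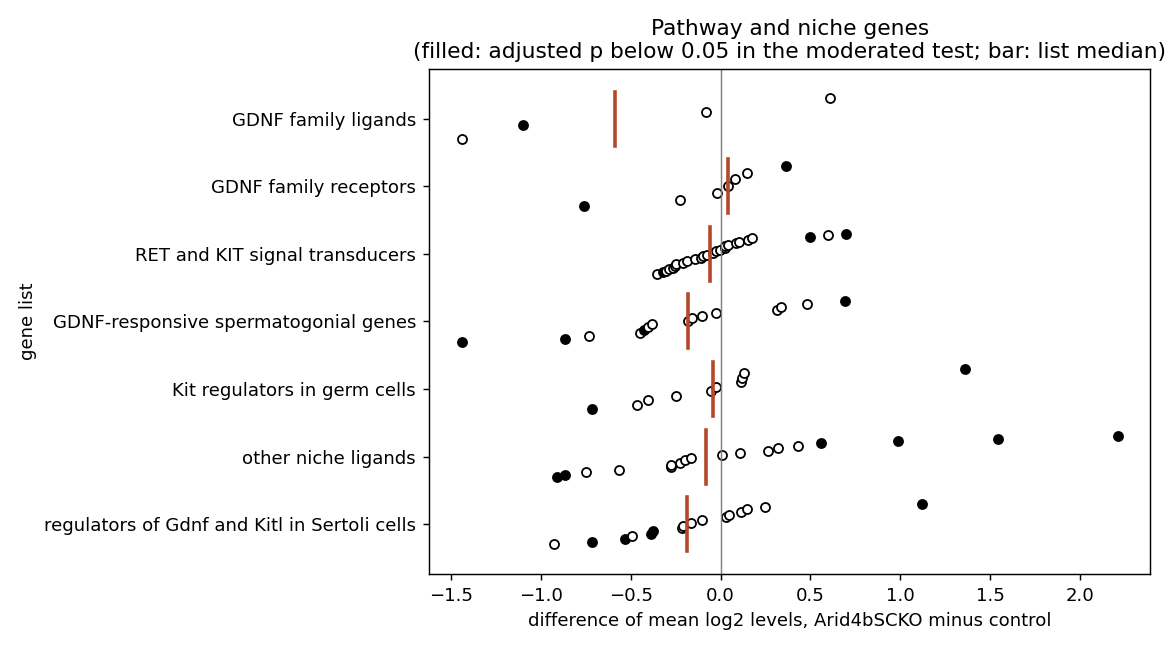
Difference of mean log2 levels, Arid4bSCKO minus control, for every tested gene of 7 lists, with filled points for genes that passed the moderated test and a bar at each list's median. Both directions appear in every list of more than 4 genes, and the medians lie between -0.19 and 0.04 except for the 4 GDNF family ligands at -0.59. The median of -0.59 depends on Pspn, which was read 1 time in Arid4bSCKO and 7 times in control, too few for a fold change.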

How the data were processed

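RNA was measured by stranded poly(A) sequencing, read from both ends. The submitters' processing notes name STAR 2.4 and mm10. How reads were counted, with or without strand and on which annotation, and how they were normalized is not given in the sources used here. Per the file headers, the deposited table holds, for each gene, the authors' mean log2 level of each group, their log2 fold change of group medians, and their unadjusted p-value and FDR. The members and gene lists were chosen with earlier results of these data known. All members are named; of each list, genes past the authors' FDR or otherwise the 2 smallest p-values are named, and further names in short counts, and Fshr, Bcl6b, Sohlh1, Sohlh2 and Zbtb16, were chosen after their values were seen.

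The table's values were treated as log2(normalized count + 1). Genes read once gave the worth of 1 read in each library (1.28, 1.30 and 1.45 normalized counts in Arid4bSCKO; 1.20, 1.23 and 1.25 in control), and the scaling was read from these steps as one by each library's upper quartile (688 to 781 reads in Arid4bSCKO and 798 to 832.75 in control), which no source states. The whole reads of 6 pools that meet both means, the median fold change and the p-value were then searched for. A single solution was found for 86.8% of genes. Recomputed p-values differed from the deposited ones by at most 5e-10, and recomputed means by at most 5e-09. Tested on simulated data, 99.85% of 2000 genes were recovered and none wrongly. For Kit no whole-read solution existed, so the values of its pools are not given.

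Differences are Arid4bSCKO minus control, with standard errors worked back from the deposited p-value at 4 degrees of freedom. The moderated test shrank these variances with limma 3.58.1 (squeezeVar, trend and robust) in R 4.3.3 for 19095 genes whose mean level was 1 or more, with Benjamini-Hochberg adjustment; 529 rows with a filled-in value were left out. Tested on simulated data for this comparison (16937 genes), it recovered 81% of 100 genes changed by 1 log2 and 98% of 100 changed by 2 log2. Of the calls, 4.79% were false. The simulated spread was not fitted to the members, whose implied SD ran from 0.21 log2 for Kitl to 0.55 log2 for Nrtn. These shares therefore need not hold for the members. Folds on this scale understate changes of genes with few reads. Whether pools were separate litters is not labelled, so p-values cover only the spread between these samples, which may be technical. Transcript lengths came from GENCODE vM21, and start site windows from RefSeq (GRCm38.p6). Leave-one-out fits, voom, other scalings and pool ratios were added after the data had been seen.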

Additional observations from a re-analysis of the deposited data

How the results depend on the processing

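No paired analysis was possible because the recovered pools carry no replicate number. The alternatives that rest on recovered pools were added after seeing the data. No member passed the authors' test, also when its p-values were adjusted over genes at a level of at least 1, against 3 in the moderated test; without trend and robust fitting 0 did, where 237 genes in all were called against 2641, and 2 to 3 with a pool left out. Of 16 alternatives with a test, Gdnf and Kitl passed 15 each and Gfra2 13, with differences of -1.32 to -0.85, -0.98 to -0.69 and -0.90 to -0.48 log2; Kit passed 0 of 6. Over all genes, leaving out a pool gave 1063 to 3225 calls. Signs turned for Gfra1 (-0.031 without Arid4bSCKO pool B, -0.19 without control pool B, -0.25 between medians), Ret (-0.21 without control pool B, -0.13 between medians) and Etv5 (0.035 without Arid4bSCKO pool C, 0.0029 without control pool A), and with a pool left out they ran to 0.16, 0.24 and -0.27. Only the fits on recovered pools use the ratio's own spread, by which Gdnf less Gfra1 (-1.14) and Gdnf less Ret (-1.18) no longer held 0; with a pool left out they were -1.41 to -0.93 and -1.37 to -0.94, where 5 and 2 of 6 intervals held 0 again, and Nrtn less Gfra2 was 0.97 to 1.81, where 5 of 6 held 0. Kitl less Kit had no such fits, because the pools of Kit were not recovered. By the authors' FDR, 0 genes of each list were called. Without trend and robust fitting, 0 were, except 1 Sertoli cell regulator. Calls with a pool left out were 0 to 2 for GDNF family receptors, 1 to 6 for transducers, 1 to 6 for GDNF-responsive genes, 1 to 3 for Kit regulators, 3 to 8 for other niche ligands and 3 to 7 for Sertoli cell regulators. Receptors had 1 call under total-read scaling, Kit regulators 1 under voom, Sertoli cell regulators 3 with the length trend removed, and transducers 5 at a level of at least 3 and 9 by unadjusted p. Over 17672 genes with a transcript length, the difference fell with length (rank correlation -0.21). With that trend removed, Gdnf, Kitl and Gfra2 kept their calls at -1.03, -0.69 and -0.69 log2. Kit was at 0.58 log2 (limma, adjusted p = 0.0538). Foxo1, Gata4, Nr2f2 and Plcg1 lost their calls, while transducers still had 3 calls and other niche ligands had 7 against 6. The causes were not tested. With 3 pools a group precision is limited, and 1 read is worth more than 1 normalized count, so Nrtn, Artn and Pspn rest on few reads.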

Other observations

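The Arid4bSCKO pools fell in one order for several Sertoli cell transcripts, with pool A highest and pool C lowest. This was the order of Gdnf (542, 417 and 282 normalized counts in pools A, B and C), of Kitl (5492, 4059 and 3781) and of the summed Sertoli cell markers (51050, 40884 and 31789). Dhh, with 3503, 2108 and 2007 normalized counts, had the same order. Sox9, with 1882, 2176 and 1424, and Wt1, with 2990, 3202 and 2737, did not, since both were highest in pool B. The summed immediate-early genes were lowest in pool A (17154, against 22141 and 21917 in pools B and C). Pool C was also the shallowest, with 13.6 M reads in recovered genes. With 3 pools no relation was tested.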
